A study of Mus musculus with 56 samples.

Results

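The activating arm of the circadian clock and the nuclear receptor loop that feeds back on it were followed in mouse kidney as 6 genes: Arntl, Clock, Npas2, Nr1d1, Nr1d2 and Rora. They were taken by name from a table of 17027 genes, and all 6 were found. Poly(A) RNA came from the kidneys of 56 adult female C57BL/6J mice, 9 weeks old, which had been kept on a 12-h light and 12-h dark cycle. For 7 days food was offered in the light phase to some mice (DRF, daytime-restricted feeding, against the animals' nocturnal habit) and in the dark phase to the others (NRF, nighttime-restricted feeding, the control). Collection was at 0, 4, 8, 12, 16, 20 and 24 h of zeitgeber time (ZT, counted from lights on), and the 14 groups of regimen and ZT held 4 mice each. Every mouse was on a restricted schedule, and mice with free access to food were not analysed here.

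Arntl encodes BMAL1, which pairs with CLOCK or with its close relative NPAS2, and the pair binds E-box DNA to switch on clock genes. Among the genes it switches on are Nr1d1 and Nr1d2, which encode the heme-binding repressors REV-ERB alpha and REV-ERB beta. REV-ERB proteins bind the RORE element and silence Arntl, Clock and Npas2, whereas ROR alpha, the product of Rora, binds the same element as an activator. The loop therefore places activator and REV-ERB transcripts on opposite sides of the day, and in peripheral organs it can be reset by the time of meals.

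DNA near the starts of Nr1d1 and Arntl is shown, from RefSeq (GRCm38.p6), with the motif letters found in it. RefSeq gave 9 starts for the 6 genes, and the 250 bases before each start were searched on both strands for 6 short motifs. These were the E-box CACGTG, the E'-box CACGTT, the RORE cores TAGGTCA and TGGGTCA, and the D-box forms TTATGTAA and TTACGTAA. Only the window of Nr1d1 held a match, 1 E'-box that lies 28 to 23 bases before the start. That window is chr11:98775378-98775627 on the minus strand (printed 5′ to 3′ with the E'-box, read from the other strand, in capitals).
Nr1d1: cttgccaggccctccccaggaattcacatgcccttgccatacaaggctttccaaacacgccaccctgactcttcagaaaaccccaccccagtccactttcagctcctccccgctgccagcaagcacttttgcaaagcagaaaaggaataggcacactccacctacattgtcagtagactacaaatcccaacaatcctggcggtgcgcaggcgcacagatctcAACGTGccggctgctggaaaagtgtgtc
An E'-box was present in 3.85% of all 32851 promoter windows, an E-box in 6.02% and the 2 RORE cores in 2.23% and 3.24%. The D-box forms were present in 0.819% and 0.113%. In Arntl, a RORE core lies past the later of its 2 RefSeq starts, so the 300-base window, which runs 50 bases past the start, found it. A longer element, searched after the windows had been read, occurred at 2 places in Arntl and in 0.0609% of all 300-base windows. Only the second place holds the core TAGGTCA. Since the element was chosen after the reading, that share is no independent measure for Arntl. Both stretches lie on the plus strand, at chr7:113207492-113207514 and chr7:113207528-113207556, and are printed with the element in capitals, its last base but 1 having been left free.
Arntl first element: attggtcggAAAGTAGGTTAgtg
Arntl second element: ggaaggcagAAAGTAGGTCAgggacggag
A match is a run of letters and no measurement of binding, and the absence of a match says only that these letters are not in this window.

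Levels are given as TPM, the gene's share of all transcripts after division by length, rebuilt from the deposited values, and differences are on log2(TPM + 1) unless a fold is named. Tests are limma fits of the 13211 genes whose mean was 1 TPM or more, a gene is called where its Benjamini-Hochberg adjusted p is under 0.05, and all ± values on folds and differences are standard errors (SE). The values of a group's mice are listed in a fixed order, and where no regimen is named NRF is listed before DRF. Kidney markers were present in every library, among them Slc34a1 of the proximal tubule at 2407 to 5176 TPM, Umod of the thick ascending limb at 3222 to 8596 TPM and Aqp2 of the collecting duct at 168 to 1455 TPM. The summed TPM of 6 adipose markers ran from 0.269 to 3304 between libraries, and was highest in NRF ZT12 replicate 1. The sum of 7 renal medulla markers ran from 495 to 2846. The sum of 5 liver markers ran from 57.6 to 552 and that of 2 of 5 blood markers from 29.2 to 615. Immune markers (7 genes) summed to 50.4 to 193 TPM, 4 of 8 adrenal markers to 4.21 to 7.81 TPM and 2 of 5 pancreas markers to 63.8 to 146 TPM. In whole kidney, fewer cells of a type and less RNA per cell cannot be told apart.

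Averaged over all samples, Nr1d1 (76.2 TPM) and Nr1d2 (65.9 TPM) were the most abundant of the 6 genes, Rora (20.4 TPM) and Clock (20.2 TPM) were alike, and Arntl (12.2 TPM) and Npas2 (10.7 TPM) were the lowest. All 6 genes were rhythmic over 24 h under NRF, beside 53.0% of all genes tested, and all 6 under DRF, beside 36.6%. The fitted 24-h cosine differed between regimens in all 6 (limma interaction of regimen with both cosine terms), beside 46.3% of all genes. Over the 6 genes the median amplitude was 1.90 under NRF and 0.99 under DRF, against 0.13 and 0.11 over all genes tested. Under NRF, Nr1d1, Npas2, Arntl and Nr1d2 ranked 2, 3, 4 and 9 by amplitude among the 13211 genes, whereas Clock and Rora ranked 888 and 1874. Under DRF the ranks were 10 for Nr1d1, 5 for Npas2, 16 for Arntl, 104 for Nr1d2, 3857 for Clock and 897 for Rora.

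**Figure D1:**
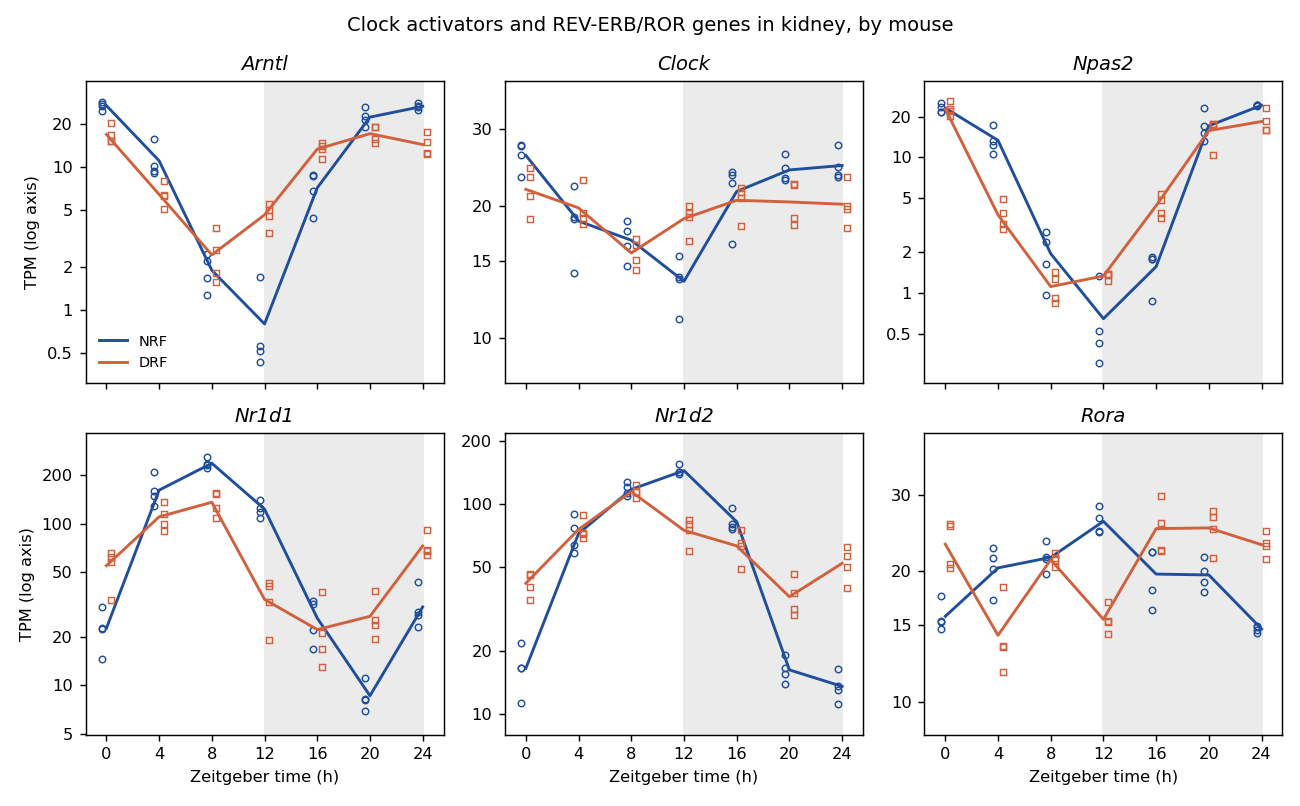
TPM of the 6 genes (log axis) against zeitgeber time, with 1 point for each mouse, lines through the means of 4 mice, blue circles for NRF and orange squares for DRF. Grey marks the dark phase. Arntl and Npas2 fell to their lowest NRF means at ZT12, 0.793 and 0.650 TPM, while Rora had its highest NRF mean there, 26.1 TPM.

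To ask whether the loop kept time with the lights or with food, the peak of the fitted cosine was compared between regimens. Arntl peaked at ZT 22.6 under NRF and at ZT 20.6 under DRF, a shift of -2.05 ± 0.296 h, where minus means earlier under DRF (permutation of regimen labels within time points, two-sided, p = 1e-05). That p is the smallest that 100000 resamples can give, and these permutation p-values are unadjusted over the 12 tests of 6 shifts and 6 amplitudes. Npas2 moved from ZT 23.9 to ZT 22.0, by -1.90 ± 0.264 h (permutation p = 1e-05). Nr1d1 moved from ZT 7.82 to ZT 5.15, by -2.67 ± 0.356 h (permutation p = 1e-05), and Nr1d2 from ZT 10.4 to ZT 8.62, by -1.73 ± 0.451 h (permutation p = 0.0009). Clock moved by -1.18 ± 1.09 h from ZT 21.9 to ZT 20.7, which did not pass the test (permutation p = 0.272). These 5 genes thus stayed within 3 h of their NRF phase. Rora did not, since its cosine peaked at ZT 11.3 under NRF and at ZT 19.4 under DRF, a shift of 8.04 ± 1.05 h (permutation p = 0.00372).

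Amplitudes fell under DRF in the 5 genes other than Rora. For Arntl the DRF amplitude was 0.62 of that under NRF (2.02 ± 0.087 against 1.26 ± 0.079, permutation p = 2e-05) and for Nr1d2 0.40 (1.78 ± 0.108 against 0.72 ± 0.072, permutation p = 1e-05). For Nr1d1 it was 0.59 (2.36 ± 0.103 against 1.39 ± 0.131, permutation p = 4e-05). Npas2 lost the least of the 5, with a ratio of 0.87 (2.11 ± 0.090 against 1.84 ± 0.085, permutation p = 0.0216), and Clock had a ratio of 0.40 on a small amplitude (0.41 ± 0.051 against 0.16 ± 0.041, permutation p = 0.0002). Whether the ratios differ between genes was not tested. The amplitude of Rora was 0.29 ± 0.043 under NRF and 0.31 ± 0.076 under DRF (ratio 1.07, permutation p = 0.85).

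**Figure D2:**
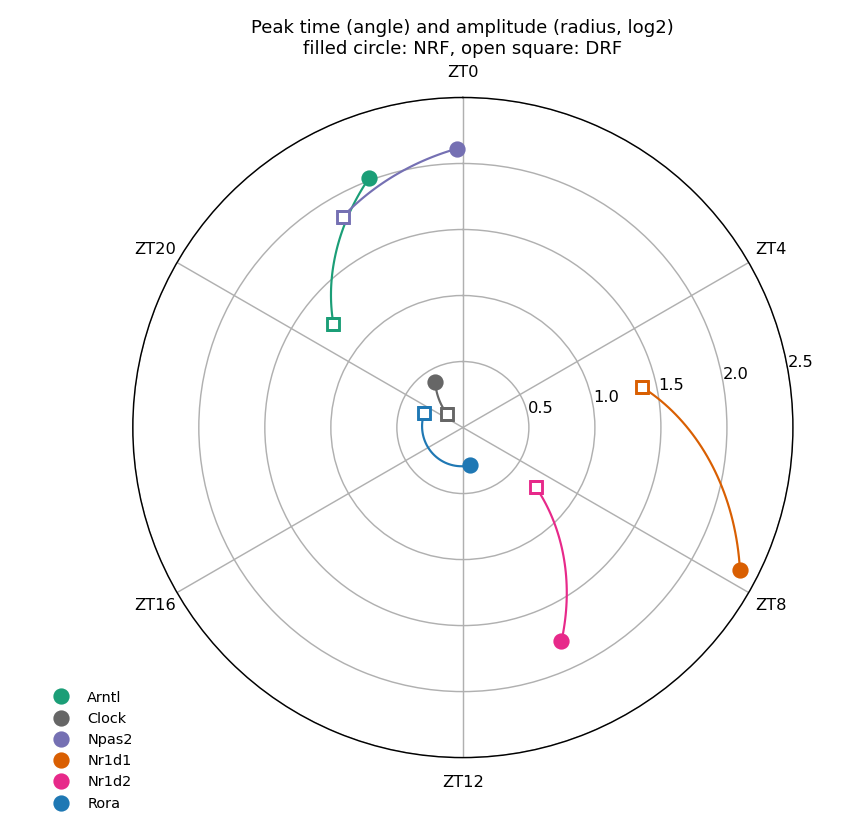
Clock-face plot with the peak time of the fitted 24-h cosine as the angle and its amplitude on log2(TPM + 1) as the radius, filled circles for NRF joined to open squares for DRF. Arntl, Npas2, Nr1d1 and Nr1d2 moved anticlockwise by 1.73 to 2.67 h and inwards, and Rora moved clockwise by 8.04 h at nearly the same radius.

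The spacing between the genes was set against these shifts. Npas2 peaked 1.29 ± 0.207 h after Arntl under NRF and 1.44 ± 0.261 h after it under DRF, a change of 0.15 ± 0.333 h (permutation p = 0.69). Nr1d2 followed Nr1d1 by 2.53 ± 0.225 h under NRF and by 3.47 ± 0.403 h under DRF, and this change of 0.94 ± 0.461 h missed 0.05 (permutation p = 0.0594). The peak time of Arntl minus that of Nr1d1 was -9.18 ± 0.233 h under NRF and -8.57 ± 0.345 h under DRF, a change of 0.61 ± 0.416 h (permutation p = 0.277). Npas2 minus Nr1d2 was -10.4 ± 0.286 h and -10.6 ± 0.384 h, which changed by -0.17 ± 0.479 h (permutation p = 0.792). Clock and Arntl lay 0.71 ± 0.415 h apart under NRF, Arntl being later, and -0.16 ± 0.846 h apart under DRF (permutation p = 0.371). Rora was the gene whose spacing changed, from 11.3 ± 0.675 h ahead of Arntl under NRF to 1.22 ± 0.907 h ahead of it under DRF (permutation p = 0.00107). Nr1d1 minus Rora was -3.50 ± 0.652 h under NRF and 9.79 ± 1.02 h under DRF, a change of -10.7 ± 1.22 h around the clock (permutation p = 0.00113). The 7 spacings were tested without adjustment.

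Arntl (Entrez 11865, chromosome 7, 113207465 to 113314126, plus strand, GRCm38), the shared partner of the activator pair, was read from 22 to 1476 reads per library. Its highest NRF values came at the light transition, with 26.5, 27.7, 24.5 and 28.4 TPM at ZT0 against 15.2, 16.8, 15.2 and 20.2 TPM under DRF. At ZT24 the 4 NRF mice had 26.4, 26.8, 24.9 and 27.8 TPM and the DRF mice 12.5, 17.5, 14.8 and 12.3 TPM. All NRF values lay above all DRF values at both times, by -0.65 ± 0.182 (adjusted p = 0.00834) and -0.86 ± 0.182 (adjusted p = 0.000689) for DRF minus NRF. In the early light phase, at ZT4, NRF mice had 15.6, 10.1, 9.07 and 9.26 TPM and DRF mice 6.24, 5.07, 6.34 and 7.94 TPM, again without overlap (-0.68 ± 0.182, adjusted p = 0.0035). At ZT8 the values overlapped, 2.44, 1.65, 2.17 and 1.27 TPM under NRF and 1.55, 1.798, 3.72 and 2.59 TPM under DRF (0.22 ± 0.182, adjusted p = 0.451). The order then turned over. At ZT12 the NRF mice had 1.68, 0.552, 0.513 and 0.430 TPM and the DRF mice 3.45, 4.51, 4.94 and 5.496 TPM, with no overlap (1.68 ± 0.182, adjusted p = 5.84e-09). Arntl in NRF ZT12 replicate 1, which stood above the other NRF mice of its time, came from the library with the highest adipose marker sum, and the difference ran from 1.59 to 1.89 when each ZT12 library was left out in turn. The ZT16 values were 4.398, 8.55, 8.74 and 6.79 TPM under NRF and 11.3, 13.99, 13.3 and 14.6 TPM under DRF, higher in every DRF mouse (0.85 ± 0.182, adjusted p = 0.00215). By ZT20 the ranges met again, with 18.9, 26.1, 21.2 and 22.8 TPM under NRF and 19.1, 14.6, 19.04 and 15.5 TPM under DRF (-0.37 ± 0.182, adjusted p = 0.16). From its highest to its lowest group mean Arntl spanned 33.8-fold under NRF and 7.06-fold under DRF (its lowest group means were 0.793 TPM with night feeding and 2.42 TPM with day feeding). Exons of Arntl share 33 bases with Gm45355 on the opposite strand, and whether counting used strand is not given in the sources used here.

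Npas2 (Entrez 18143, chromosome 1, 39193731 to 39363236, plus strand), the alternative partner of BMAL1, was the gene of the activator arm with the strongest rhythm, and it spanned 37.3-fold under NRF and 20.3-fold under DRF. It was also the most thinly read, from 10 to 837 reads per library. At ZT0 its values overlapped between regimens, 21.7, 23.7, 21.6 and 25.3 TPM under NRF and 21.9, 26.1, 20.4 and 22.7 TPM under DRF (-0.02 ± 0.181, adjusted p = 0.944). The largest gap came at ZT4, where NRF mice still had 17.3, 12.4, 13.2 and 10.6 TPM but DRF mice only 3.26, 2.97, 4.98 and 3.91 TPM, 3.54-fold lower in the mean (-1.59 ± 0.181, adjusted p = 4.66e-09). Thus Npas2 had already fallen at ZT4 under DRF. At ZT8 the values were 2.83, 2.38, 1.65 and 0.966 TPM under NRF and 1.28, 0.844, 1.44 and 0.922 TPM under DRF (-0.44 ± 0.181, adjusted p = 0.0826, or 0.0172 without NRF ZT8 replicate 4), and at ZT12 they were 1.33, 0.433, 0.527 and 0.307 TPM and 1.39, 1.37, 1.22 and 1.39 TPM. The ZT12 difference was called (0.54 ± 0.181, adjusted p = 0.0258) although the ranges overlapped, and leaving out any of 6 of the 8 ZT12 libraries brought its adjusted p to between 0.05 and 0.0962. At ZT16 DRF mice had 3.56, 5.38, 4.84 and 3.87 TPM against 0.874, 1.84, 1.79 and 1.78 TPM under NRF, with no overlap (1.08 ± 0.181, adjusted p = 0.000113). The ZT20 values overlapped, 15.1, 23.1, 13.2 and 16.99 TPM under NRF and 17.4, 10.4, 17.7 and 17.6 TPM under DRF (-0.11 ± 0.181, adjusted p = 0.71). At ZT24 the NRF mice were tightly grouped at 23.9, 24.2, 24.4 and 24.5 TPM and the DRF mice had 15.97, 23.2, 18.4 and 16.01 TPM, lower in each but not called (-0.39 ± 0.181, adjusted p = 0.141). Npas2 was thus called lower under DRF at ZT4 and higher at ZT12 and ZT16.

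Clock (Entrez 12753, chromosome 5, 76209868 to 76304792, minus strand), the usual partner of BMAL1 and a histone acetyltransferase, changed little over the day, 1.94-fold under NRF and 1.397-fold under DRF. Its 1023 to 2612 reads per library put the counting error well below the spread between mice (0.031 against 0.174 on the log2 scale under NRF). Only at ZT12 did the difference pass the test, 15.4, 13.6, 11.1 and 13.8 TPM under NRF against 16.7, 19.3, 18.9 and 20.02 TPM under DRF (0.45 ± 0.109, adjusted p = 0.00199), and every DRF mouse was above every NRF mouse. At lights on, ZT0, the values were 26.2, 27.4, 23.3 and 27.5 TPM under NRF and 18.6, 23.3, 21.1 and 24.4 TPM under DRF (-0.25 ± 0.109, adjusted p = 0.0997). The ZT24 values were 23.3, 23.6, 24.5 and 27.5 TPM and 17.8, 20.04, 19.7 and 23.2 TPM (-0.28 ± 0.109, adjusted p = 0.0696, or 0.0322 without DRF ZT24 replicate 4). At ZT20 they were 22.9, 26.2, 24.4 and 23.1 TPM and 18.8, 18.1, 22.5 and 22.4 TPM (-0.24 ± 0.109, adjusted p = 0.127). At ZT20 and ZT24 no DRF value reached the NRF range, and with median-of-ratios scaling both were called (adjusted p = 0.0263 and 0.0256). The other groups overlapped. They held 22.3, 14.1, 18.7 and 18.9 TPM under NRF and 18.2, 19.3, 18.8 and 22.9 TPM under DRF at ZT4, 18.5, 17.5, 16.2 and 14.6 TPM and 15.1, 14.3, 16.3 and 16.9 TPM at ZT8, and 16.4, 23.96, 23.5 and 22.6 TPM and 21.98, 20.9, 18.02 and 21.5 TPM at ZT16.

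Nr1d1 (Entrez 217166, chromosome 11, 98767932 to 98775333, minus strand), which encodes the principal REV-ERB repressor, swung from 8.58 ± 1.80 TPM at ZT20 to 237 ± 17.0 TPM at ZT8 under NRF (SD, n = 4), or 27.7-fold. Under DRF it ran from 22.1 ± 10.8 TPM at ZT16 to 136 ± 23.1 TPM at ZT8 (SD, n = 4), or 6.16-fold. At ZT8, its peak, NRF mice had 231, 261, 221 and 236 TPM and DRF mice 156, 154, 126 and 108 TPM, with no overlap (-0.81 ± 0.253, adjusted p = 0.0206). That call was lost without DRF ZT8 replicate 3 or 4 or without NRF ZT8 replicate 2 (adjusted p = 0.0522, 0.0719 and 0.0506). The ZT4 values overlapped, 129, 160.4, 209 and 149 TPM under NRF and 90.1, 100.3, 136 and 116 TPM under DRF (-0.54 ± 0.253, adjusted p = 0.0996). At lights off, ZT12, NRF mice still had 141, 109, 126 and 118 TPM whereas DRF mice had 41.3, 32.6, 42.9 and 19.1 TPM, 3.63-fold less in the mean (-1.89 ± 0.253, adjusted p = 3.84e-07). The ZT16 values were again mixed, 31.9, 33.4, 16.8 and 21.9 TPM under NRF and 37.6, 20.9, 16.8 and 12.97 TPM under DRF (-0.28 ± 0.253, adjusted p = 0.533). In the late night the order was reversed. At ZT20 NRF mice had 8.13, 6.88, 11.1 and 8.19 TPM and DRF mice 23.6, 19.2, 25.4 and 38.5 TPM, 3.11-fold more in the mean (1.504 ± 0.253, adjusted p = 2.2e-05). The ZT24 values were 43.4, 27.03, 22.97 and 28.5 TPM and 67.9, 91.1, 68.8 and 63.9 TPM (1.26 ± 0.253, adjusted p = 0.000352), and at ZT0 22.7, 14.5, 30.6 and 22.3 TPM and 62.4, 57.8, 66.3 and 33.5 TPM (1.25 ± 0.253, adjusted p = 0.000271). All DRF mice were above all NRF mice at these 3 times.

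The exons of Nr1d1 share 263 bases with those of Thra, a thyroid hormone receptor gene on the opposite strand, and its estimated reads were whole in 16.1% of libraries. Thra was itself rhythmic, with an amplitude of 0.46 ± 0.036 peaking at ZT 3.73 under NRF and of 0.32 ± 0.035 peaking at ZT 0.80 under DRF. Its group means ran from 37.9 to 74.8 TPM under NRF and from 40.4 to 64.5 TPM under DRF, a narrower range than that of Nr1d1. The part of shared reads in the Nr1d1 values was not tested.

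Nr1d2 (Entrez 353187, chromosome 14, 18204054 to 18239127, minus strand), which encodes REV-ERB beta, had a later fitted peak than Nr1d1 under both regimens. Its highest DRF group mean was nevertheless at ZT8 (115 TPM), as was that of Nr1d1 (136 TPM). At ZT4 and ZT8 the ranges of Nr1d2 overlapped between regimens and neither difference was called. NRF mice had 63.8, 58.8, 90.05 and 77.1 TPM at ZT4 and DRF mice 72.2, 69.2, 73.2 and 88.6 TPM (0.08 ± 0.149, adjusted p = 0.737). At ZT8 they had 112, 121, 109 and 127 TPM and 114, 114, 107 and 123 TPM (-0.03 ± 0.149, adjusted p = 0.909). Under NRF the transcript went on rising to 156, 142, 142 and 138 TPM at ZT12, whereas under DRF it had already fallen to 84.4, 80.8, 75.5 and 59.5 TPM (-0.95 ± 0.149, adjusted p = 7.35e-06). It stood at 75.9, 95.6, 80.5 and 77.7 TPM and 75.1, 65.2, 63.4 and 49.4 TPM at ZT16, with no overlap but without a call (-0.39 ± 0.149, adjusted p = 0.096). The night trough was shallower under DRF. At ZT20 NRF mice had 16.6, 13.9, 19.1 and 15.5 TPM and DRF mice 29.6, 31.5, 37.6 and 46.3 TPM (1.10 ± 0.149, adjusted p = 5.35e-07). At ZT24 they had 16.4, 13.6, 13.1 and 11.2 TPM and 62.7, 39.8, 50.1 and 56.5 TPM, a 3.85-fold difference of the means that was the largest of this gene (1.86 ± 0.149, adjusted p = 3.59e-12). The ZT0 values were 16.5, 11.3, 21.8 and 16.5 TPM and 40.4, 46.1, 46.3 and 35.1 TPM (1.32 ± 0.149, adjusted p = 9.01e-09). Nr1d2 was the only 1 of the 6 genes whose mean of log2(TPM + 1) over the day (mesor) was called. This log mean was higher under DRF by 0.23 ± 0.058 (adjusted p = 0.00478), and 12.9% of all genes were called. Group means of Nr1d2 ran from 13.6 to 144 TPM under NRF and from 36.25 to 115 TPM under DRF. In TPM these means were lower under DRF at ZT8, ZT12 and ZT16, most at ZT12 (75.0 against 144 TPM). They were higher under DRF at ZT0, ZT4, ZT20 and ZT24. Its daily mean in TPM was not tested, and a higher log mean does not show a higher mean in TPM. Under NRF Nr1d2 was also the 1 gene with a called 12-h component (amplitude 0.50, adjusted p = 0.000297), beside 0.810% of all genes. Under DRF the 12-h component was called in Arntl (0.24, adjusted p = 0.0171) and Npas2 (0.29, adjusted p = 0.00276), beside 31.5% of all genes, and the call of Arntl was lost without DRF ZT8 replicate 1 (adjusted p = 0.0504). Clock, with a 12-h amplitude of 0.10 (adjusted p = 0.111), was called with median-of-ratios scaling (adjusted p = 0.00798) and on the deposited values (adjusted p = 0.0387).

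Rora (Entrez 19883, chromosome 9, 68653786 to 69388246, plus strand), which encodes the RORE activator, had a small daily range, 1.77-fold under either regimen, from 1089 to 2574 reads per library. The light phase is taken here as the feeding phase of DRF and the dark phase as that of NRF, since the exact hours of food access are not given in the sources used here. At ZT12, the end of the daily fast under NRF, all NRF mice were high with 26.6, 28.3, 24.7 and 24.8 TPM and all DRF mice low with 15.2, 17, 15.4 and 14.3 TPM (-0.72 ± 0.101, adjusted p = 1.06e-06). At ZT24, the end of the fast under DRF, the order was the opposite, 14.8, 14.6, 14.4 and 14.97 TPM under NRF and 22.8, 23.2, 24.8 and 21.3 TPM under DRF (0.61 ± 0.101, adjusted p = 2.28e-05). The ZT0 values repeated that of ZT24, with 14.7, 15.4, 15.3 and 17.6 TPM and 25.5, 20.7, 20.4 and 25.8 TPM (0.52 ± 0.101, adjusted p = 0.000158). At ZT4, with food under DRF, Rora stood at 13.4, 11.7, 13.4 and 18.4 TPM against 21.4, 17.1, 22.7 and 20.2 TPM without food under NRF (-0.50 ± 0.101, adjusted p = 0.000157), and 1 DRF mouse reached the NRF range. The ZT8 values lay together, 21.4, 19.7, 21.5 and 23.5 TPM and 21.4, 21.2, 20.4 and 21.97 TPM (-0.02 ± 0.101, adjusted p = 0.938). During the night Rora was higher in the fasted DRF mice, 29.8, 25.9, 22.3 and 22.4 TPM against 16.3, 22.2, 22.2 and 18.1 TPM at ZT16 (0.34 ± 0.101, adjusted p = 0.0274). At ZT20 it was 25, 21.4, 27.5 and 26.7 TPM against 17.9, 18.9, 21.6 and 19.97 TPM, with overlapping ranges (0.34 ± 0.101, adjusted p = 0.0123). The ZT16 call was lost without DRF replicate 1 or 2 or NRF replicate 1 or 4 (adjusted p from 0.075 to 0.126), and the ZT20 call without DRF replicate 3 or NRF replicate 1 (adjusted p = 0.0577 and 0.0545). The DRF profile was not a simple wave, since all 4 mice at ZT8 were above all mice at ZT4 and at ZT12, and its 12-h component had an amplitude of 0.17 (adjusted p = 0.119), which was called without DRF ZT16 replicate 1 or DRF ZT20 replicate 2 (adjusted p = 0.0422 and 0.0365). The exons of Rora share 82 bases with Gm15511 on the opposite strand.

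Within groups, Rora varied with several marker sums. Over the 56 libraries the deviations of Rora from its group means had a Pearson r of 0.63 with those of the renal medulla sum and of 0.52 with those of 12 kidney segment markers, which share a library and its scaling. It was 0.55 with the sum of 4 adrenal markers (Cyp11a1, Star, Cyp21a1 and Hsd3b1) and -0.55 with that of 2 pancreas markers (Cela1 and Ins2). The other 4 adrenal markers of the list, Cyp11b1, Cyp11b2, Th and Pnmt, were not found by name among the 17027 genes. Nor were Prss2, Cpa1 and Amy2a5 of the 5 pancreas markers. The group means of the medulla sum ran from 764 TPM (DRF ZT0) to 1792 TPM (DRF ZT8) and were 985 TPM at NRF ZT12 and 1386 TPM at DRF ZT12. They were 892 TPM under NRF and 1284 TPM under DRF at ZT20, and 981 TPM and 892 TPM at ZT24. At ZT0 they were 1135 TPM under NRF and 764 TPM under DRF, and at ZT4 1034 TPM and 1410 TPM. They were 1206 TPM and 1792 TPM at ZT8, and 1331 TPM and 1262 TPM at ZT16. The mean medulla sum was thus higher where the mean of Rora was lower at every time but ZT20, where both were higher under DRF. By medians the order of the medulla sums was the other way at ZT4 (994 TPM under NRF and 950 TPM under DRF). It was also the other way at ZT16 (1030 TPM and 1107 TPM). The highest library had 2846 TPM at DRF ZT4 and 2384 TPM at NRF ZT16. The adrenal sum averaged 6.71 TPM in NRF mice and 5.18 TPM in DRF mice at ZT4, 6.83 TPM and 5.61 TPM at ZT12, 5.67 TPM and 7.07 TPM at ZT20, and 5.31 TPM and 6.68 TPM at ZT24. At these 4 times its group means stood in the same order as those of Rora. The order was also the same at ZT0 (5.28 TPM under NRF and 5.86 TPM under DRF) and ZT16 (5.26 TPM and 5.43 TPM). It was the same at ZT8 (6.72 TPM and 6.28 TPM), where the Rora means lay close (21.52 TPM and 21.25 TPM). The part of these markers in the Rora values was not tested. For the other 5 genes the r with the medulla sum was 0.23 to 0.43.

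**Figure D3:**
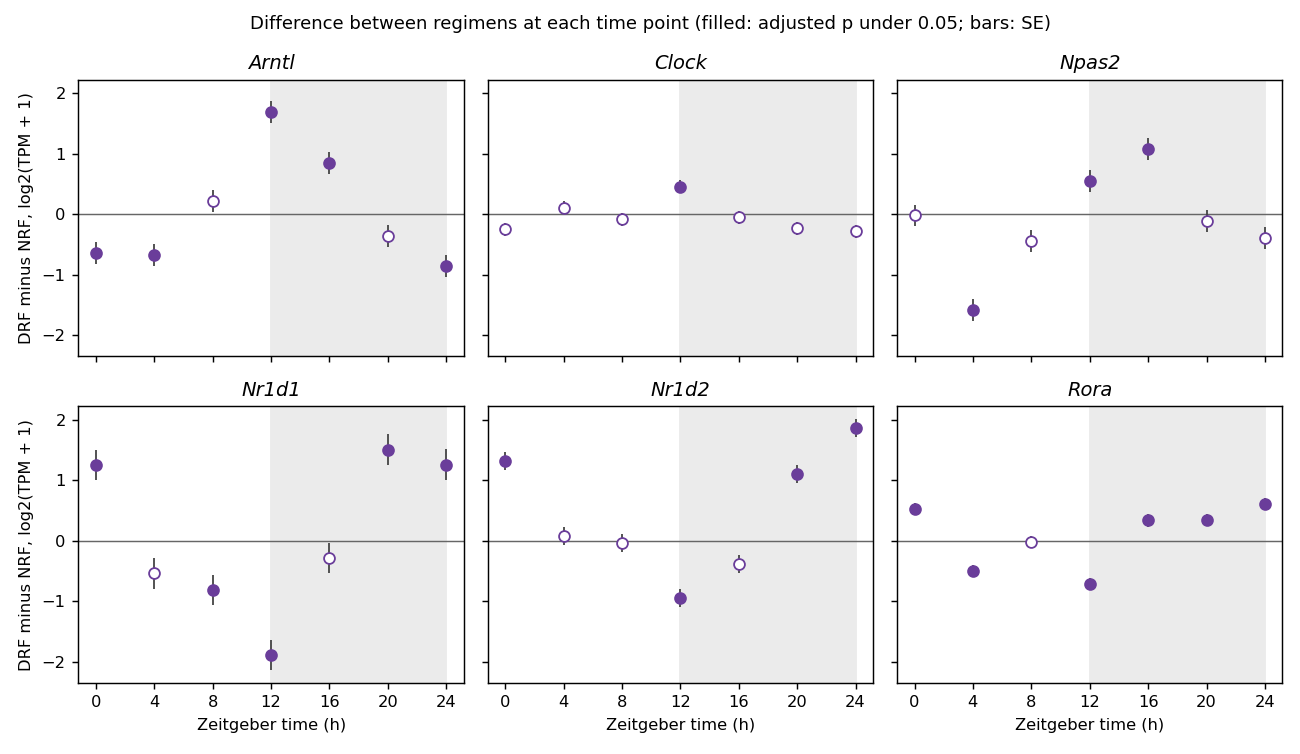
DRF minus NRF on log2(TPM + 1) with its SE at each zeitgeber time for the 6 genes, from 1 limma fit of 14 groups of 4, filled where the adjusted p was under 0.05. At ZT12 all 6 points were filled, from -1.89 for Nr1d1 to 1.68 for Arntl, and that of Npas2 was lost without any of 6 of the 8 libraries.

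Read by time of day, ZT12 was the time with the most calls. All 6 genes were called there, beside 21.6% of all genes, with Arntl, Clock and Npas2 higher under DRF and Nr1d1, Nr1d2 and Rora lower. The median absolute difference of the 6 was 0.83, against 0.14 over all genes. The Npas2 call at ZT12 was lost without any of 6 of the 8 libraries, and the count then ran from 5 to 6. At ZT24 4 of 6 were called (16.1% of all genes) and at ZT0 4 of 6 (20.3%), in both cases Arntl, Nr1d1, Nr1d2 and Rora. At ZT4 3 of 6 were called (31.4% of all genes), which were Arntl, Npas2 and Rora. ZT16 gave Arntl, Npas2 and Rora (3 of 6, 8.75% of all genes) and ZT20 gave Nr1d1, Nr1d2 and Rora (3 of 6, 19.2%). ZT8 had the least, Nr1d1 alone (1 of 6, 17.3%). Between ZT0 and ZT24, the same clock time a day apart, none of the 6 was called under NRF (0.727% of all genes) or under DRF (0% of all genes). None of the 6 reached an unadjusted p under 0.05 in limma there either, and limma with voom weights called 0. Shares of all genes for these counts are not given here. The median absolute ZT24 minus ZT0 difference of the 6 was 0.081 under NRF, against 0.085 over all genes. Under DRF it was 0.26, against 0.062 over all genes. The lack of calls thus does not show that ZT0 and ZT24 were equal under DRF.

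The 14 groups were also compared at the same time relative to food, taking the light phase as the feeding phase of DRF and the dark phase as that of NRF. DRF ZT8 was set against NRF ZT20, late in the feeding phase, and 5 of 6 genes were called, beside 15.4% of all genes. The differences there were -2.80 ± 0.182 for Arntl, -3.08 ± 0.181 for Npas2, 3.84 ± 0.253 for Nr1d1, 2.75 ± 0.149 for Nr1d2 and -0.60 ± 0.109 for Clock. Rora differed by 0.11 ± 0.101 (adjusted p = 0.513). At the end of the fast, DRF ZT0 and ZT24 against NRF ZT12, 5 of 6 were called (11.7% of all genes), with Npas2 at 3.73 ± 0.156 and Arntl at 3.24 ± 0.158, and Rora at -0.17 ± 0.087 (adjusted p = 0.221). At the end of the feeding phase, DRF ZT12 against NRF ZT0 and ZT24, 4 of 6 were called (19.2% of all genes), while Nr1d1 differed by 0.34 ± 0.219 (adjusted p = 0.307) and Rora by 0.02 ± 0.087 (adjusted p = 0.894). Late in the fast, DRF ZT20 against NRF ZT8, 4 of 6 were called (13.5%), and Rora differed by 0.21 ± 0.101 (adjusted p = 0.163).

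Both comparisons early in a phase called Rora. DRF ZT4 against NRF ZT16 gave 3 of 6 (17.3% of all genes), with Rora at -0.45 ± 0.101 (adjusted p = 0.00159), Nr1d1 at 2.08 ± 0.253 and Npas2 at 0.90 ± 0.181. DRF ZT16 against NRF ZT4 gave 3 of 6 (33.8% of all genes), with Rora at 0.29 ± 0.101 (adjusted p = 0.0234), Nr1d1 at -2.90 ± 0.253 and Npas2 at -1.40 ± 0.181. The Rora call in this last comparison was lost without DRF ZT16 replicate 1, without DRF ZT16 replicate 2 or without NRF ZT4 replicate 2 (adjusted p = 0.138, 0.057 and 0.118). Over the 7 comparisons at the same clock time the median absolute difference was 0.68 for Arntl, 0.44 for Npas2, 1.25 for Nr1d1, 0.95 for Nr1d2, 0.24 for Clock and 0.50 for Rora. Over the 6 at the same feeding time it was 2.48 for Arntl, 2.80 for Npas2, 2.49 for Nr1d1, 1.65 for Nr1d2, 0.35 for Clock and 0.19 for Rora. Rora was the 1 gene of the 6 whose median was smaller by feeding time, with 6 of 7 clock-time and 2 of 6 feeding-time comparisons called. These 2 sets use the same samples, and the difference between the medians was not tested.

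**Figure D4:**
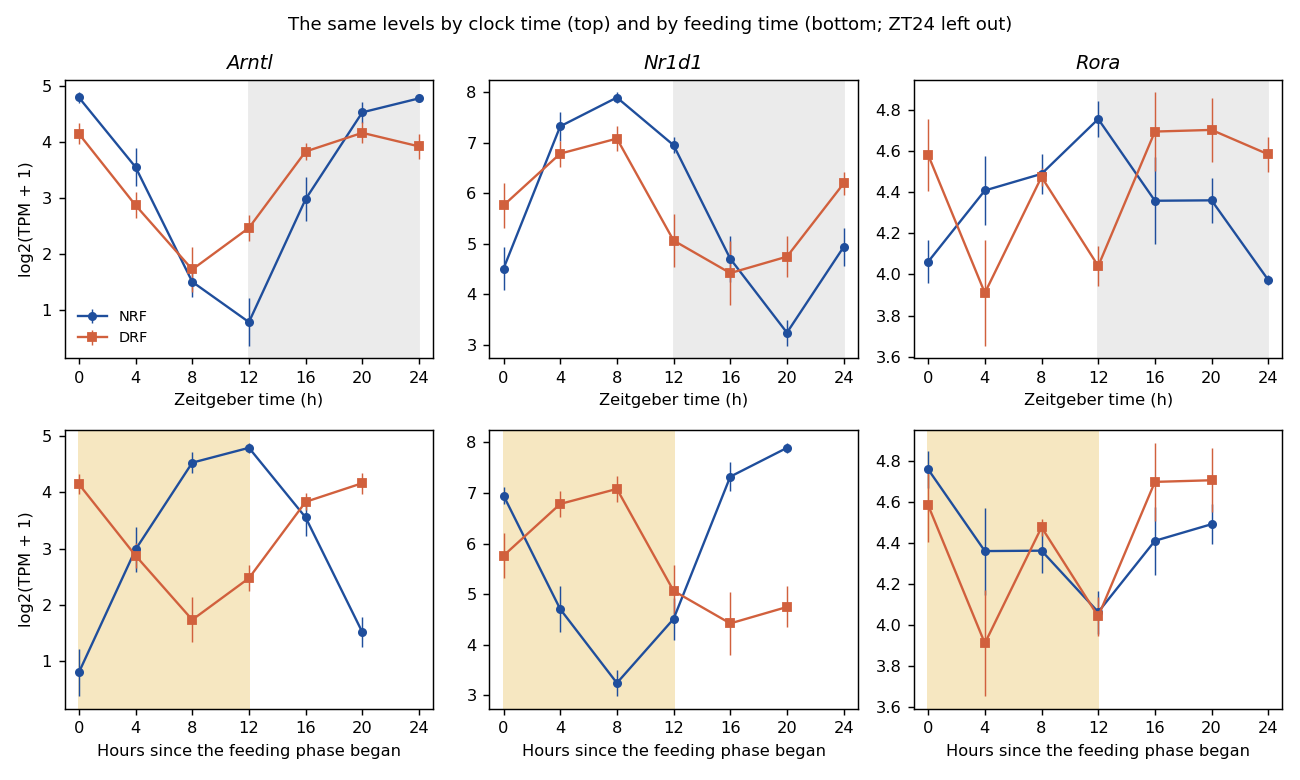
Group means ± SD (4 mice) of Arntl, Nr1d1 and Rora on log2(TPM + 1) against zeitgeber time (top, dark phase grey) and against hours since the feeding phase began (bottom, feeding phase shaded, ZT24 left out). By clock time the widest gaps were at ZT12, 1.68 for Arntl and -1.89 for Nr1d1. In the feeding-time tests, which averaged ZT0 and ZT24, the largest differences of Arntl and Nr1d1 were 3.24 and 3.84, against 0.45 for Rora in absolute value.

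To place the activator against its repressor in the same mouse, Arntl minus Nr1d1 was taken on log2(TPM + 1). This difference peaked at ZT 21.1 ± 0.130 under NRF and ZT 18.8 ± 0.263 under DRF, a shift of -2.34 ± 0.294 h (permutation p = 1e-05). Its amplitude fell from 4.09 ± 0.138 to 2.39 ± 0.185 (ratio 0.58, permutation p = 1e-05). At ZT12 it was -6.16 ± 0.305 under NRF and -2.59 ± 0.692 under DRF (SD, n = 4), and no values overlapped (difference 3.57, exact permutation p = 0.0286). With 4 mice against 4, 0.0286 is the smallest p this exact two-sided test can give. The same p was reached at ZT0 (-1.90), ZT8 (1.03), ZT20 (-1.87) and ZT24 (-2.11), and not at ZT16 (1.13, exact permutation p = 0.0857). At ZT4 the balance was alike, -3.77 ± 0.590 under NRF and -3.91 ± 0.275 under DRF (SD, n = 4, exact permutation p = 0.714). Npas2 minus Nr1d2 gave a shift of -1.57 ± 0.257 h and an amplitude ratio of 0.66. It differed at 6 of 7 times (exact permutation p = 0.0286 each), and at ZT8 the values were -5.37 ± 0.485 under NRF and -5.78 ± 0.259 under DRF (SD, n = 4, exact permutation p = 0.2).

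**Figure D5:**
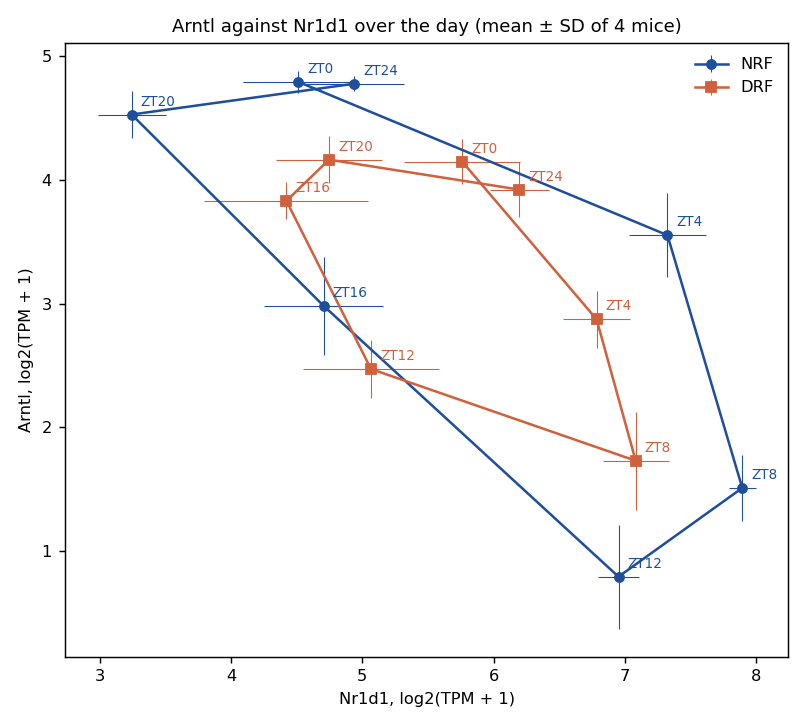
Mean Arntl against mean Nr1d1 on log2(TPM + 1) at each zeitgeber time (error bars, SD of 4 mice), joined in order of time. The NRF loop reaches from 3.24 to 7.89 in Nr1d1 and from 0.79 to 4.80 in Arntl, and the DRF loop from 4.42 to 7.08 and from 1.73 to 4.17, with the widest separation at ZT12.

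Mice of 1 group also varied together in these genes. The deviations from group means had a Pearson r of 0.69 between Arntl and Npas2 over 56 libraries (0.84 within the 28 NRF and 0.48 within the 28 DRF libraries). Between Nr1d1 and Nr1d2 it was 0.64 (0.73 and 0.58), and between Arntl and Clock 0.60 (0.72 and 0.43). Between Clock and Npas2 it was 0.48 (0.65 and 0.19). Across the arms it was -0.30 for Arntl with Nr1d1 (-0.24 and -0.36) and -0.26 for Arntl with Nr1d2 (-0.135 and -0.41). For Npas2 with Nr1d2 it was -0.11 (-0.16 and -0.05). The other pairs across the arms lay between -0.19 and 0.04 over the 56 libraries. Rora had an r of 0.45 with Clock, 0.36 with Nr1d2 and 0.30 with Arntl. The genes of a library share its depth, its scaling and the moment of collection. The pooled SD between mice on the log2 scale was 0.41 for Nr1d1 under DRF and 0.32 under NRF, against median counting errors of 0.041 and 0.054, and at DRF ZT16 it reached 0.63. For Arntl the pooled SD was 0.28 under NRF and 0.24 under DRF, for Npas2 0.29 and 0.23, for Nr1d2 0.22 under both, for Clock 0.17 and 0.14 and for Rora 0.13 and 0.16.

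The genes whose profile was most like each of the 6 were taken over the 56 samples from 9281 others with a mean TPM of at least 10. Arntl was closest to Leo1 (Pearson r 0.92), Ppm1h (0.92) and Avpr1a (0.92) and most opposite to Dbp (-0.95), Ciart (-0.94) and Cpeb3 (-0.91). Clock was closest to Leo1 (0.90), Rdh10 (0.88) and Ap3d1 (0.86) and most opposite to Dbp (-0.84), Sh3d21 (-0.82) and Clcn2 (-0.82). For Npas2 they were Rtl6 (0.94), Dtx4 (0.94) and Arhgef10l (0.94), with Tef (-0.95), Per3 (-0.94) and Cpeb3 (-0.93) at the other end. Nr1d1 had lower values, 0.82 with Fibp, 0.81 with Sema4d and 0.81 with Jade1, and its opposites were Nfil3 (-0.88), Cry1 (-0.78) and A1cf (-0.78). Nfil3 and Cry1 are known RORE genes that REV-ERB represses. Nr1d2 was closest to Dbp (0.93), Tef (0.88) and Per3 (0.85), all E-box driven, and most opposite to Ppard (-0.92), Pi4k2a (-0.88) and Arntl itself (-0.88). Rora was closest to Crebrf (0.91), Ulk1 (0.82), which encodes the kinase that starts autophagy, and Rbm33 (0.82), with Pdf (-0.82), Cks2 (-0.80) and Hdhd3 (-0.80) opposite.

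The rest of the pathway was read from lists. Of 14 E-box driven repressors and outputs, 14 were rhythmic under NRF, 13 under DRF and 13 differed between regimens, with a median amplitude ratio of 0.61 against 0.83 over all genes tested. Their median absolute phase shift, over the 13 rhythmic under both, was 1.76 h, beside 1.98 h for the 6 genes and 6.15 h for the 3263 genes rhythmic under both of all tested. Per2, a repressor of the activator pair, shifted most of the list (-3.34 ± 0.445 h) and Cry2, its partner, least (-0.06 ± 0.736 h). Dbp, an output factor, shifted by -2.82 ± 0.310 h. Of 4 RORE-driven targets tested, 3 were rhythmic under both regimens and differed between them, among them Cry1 with a shift of -2.18 ± 0.391 h and Nfil3 with -2.08 ± 0.445 h. Cry1 is also counted in the E-box list. Ppargc1a, a coactivator of ROR proteins, was rhythmic under neither (adjusted p = 0.0901 and 0.173). Arntl2, the paralog of Arntl, was low at 1.01 TPM and rhythmic under neither (adjusted p = 0.356 and 0.78).

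The lists around REV-ERB and the regulators of the clock proteins were less uniform. Of 7 REV-ERB corepressor and heme genes tested, 5 were rhythmic under NRF, 4 under DRF and 4 differed between regimens, with a median absolute shift of 3.57 h over the 3 rhythmic under both. Alas1, the first enzyme of heme synthesis and so of the REV-ERB ligand, moved from ZT 17.1 to ZT 9.32, by -7.75 ± 0.682 h, and its amplitude rose from 0.54 ± 0.087 to 0.85 ± 0.088 (interaction adjusted p = 1.11e-09). Hmox1, which degrades heme, shifted by -1.53 ± 0.905 h (interaction adjusted p = 0.357). Hdac3, the corepressor deacetylase, shifted by -3.57 ± 0.952 h. Of 15 genes of the list of kinases and ligases that act on these proteins, 6 were rhythmic under NRF, 8 under DRF and 5 differed, with a median absolute shift of 7.85 h over the 5 rhythmic under both. Csnk1d, a kinase of period proteins, shifted least of these (-1.37 ± 1.29 h), and Fbxl21, a ligase subunit for cryptochromes, shifted by -7.85 ± 0.857 h. Over all 13211 genes, 7002 were rhythmic under NRF, 4832 under DRF and 6117 differed.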

How the data were processed

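Kidney poly(A) RNA was read from both ends on the BGISEQ-500 platform. The submitters' processing notes name HISAT2, Bowtie2 and RSEM with the mm10 and GRCm38.p6 builds, without versions. The authors called the deposited values TPM, but the columns summed to 999145 to 999753 with a largest value of 1266, and they were read as a score: each gene's log2(CPM + 1) divided by its length and scaled to a fixed sum. The design had assumed TPM on a linear scale. With exon lengths of GENCODE M21, estimated reads were recovered, whole or in hundredths, for 16415 of 17027 genes (96.4%). In the whole-read genes 99.8% of values were within 0.05 of a whole read, and all values of the 6 genes came out as hundredths or whole reads. TPM was computed over the recovered genes only, which leaves out Ncor1.

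The 13211 genes averaging 1 TPM or more were fitted as log2(TPM + 1) with limma 3.58.1 (R 4.3.3, mean-variance trend), by 24-h cosines (ZT24 at the phase of ZT0), added 12-h terms and contrasts of 14 groups of 4, with Benjamini-Hochberg adjustment over all genes. The fits were tested on simulated data. Phases, amplitudes and spacings were compared by 100000 permutations of regimen labels within time points, and 4 mice against 4 by exact permutation (Python 3.11.15, SciPy 1.17.1). One NRF ZT24 column carried a number found in no sample title, so that library has no replicate number. All 56 columns were used, and the depth was 21786710 to 24484440 recovered reads per library. The p-values measure the spread between these samples. Replicate correlations across genes had a median of 0.988.

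The 6 genes, the lists and the tests were chosen with earlier results of these data known. The text names the 6 genes, the 3 most alike and 3 most opposite genes of each, list members with the largest and smallest phase shift rhythmic under both regimens, others of those lists, and genes on the opposite strand. Rorb and E2f8 were not tested, and some list members that the rule would name are not reported here. Alternatives were median-of-ratios scaling, the deposited values, a pseudocount of 0.1, minimum TPM of 5 or none, voom weights, a replicate block, leaving out ZT24 or each library, Npas2 minus Nr1d2 in place of Arntl minus Nr1d1 or no pseudocount for that difference, a cosine on linear TPM and a 300-base promoter window.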

Additional observations from a re-analysis of the deposited data

Results flagged for a closer look

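Differences between the regimens in the 24-h rhythm were called in all 6 genes, beside 46.3% of all genes tested. Each is given as the length of the difference of the cosine terms on the log2 scale (limma interaction, adjusted p beside each). It was 1.57 for Nr1d1 (2.99e-11), 1.18 for Nr1d2 (2.96e-10), 1.14 for Arntl (6.55e-11), 1.01 for Npas2 (7.61e-08), 0.52 for Rora (4.44e-06) and 0.26 for Clock (0.00246).

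Of 84 sets of 4 values (6 genes in each of 14 groups of the same 56 mice), 5 held a value set apart from the other 3 by more of the group's range than Dixon's 95% critical value, which chance passes in about 1 set in 20. Of the 5, 2 were values of the same mouse, NRF ZT16 replicate 1. NRF ZT12 replicate 1 had 1.68 TPM of Arntl against 0.430 to 0.552 TPM in the others. NRF ZT16 replicate 1 had 16.4 TPM of Clock against 22.6 to 23.96 TPM. The same library had 0.874 TPM of Npas2 against 1.78 to 1.84 TPM. These libraries, NRF ZT12 replicate 1 and NRF ZT16 replicate 1, had the highest sums of adipose markers, 3304 and 2180 TPM, and the part of adipose RNA in these values was not tested. DRF ZT12 replicate 3 had 1.22 TPM of Npas2 against 1.37 to 1.39 TPM, and DRF ZT20 replicate 2 had 10.4 TPM of Npas2 against 17.4 to 17.7 TPM.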

How the results depend on the processing

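All 6 genes stayed rhythmic in both regimens, and their 24-h cosines stayed different between regimens, when each library was left out in turn. The exception among other settings was Clock under DRF, whose rhythm was not called on the deposited values (amplitude 0.14, adjusted p = 0.064). The phase shifts kept their side of 0.05 under the settings run for them (median-of-ratios scaling, deposited values, a pseudocount of 0.1, linear TPM, without ZT24, and each library left out), and leaving out 1 library moved them between -2.16 and -1.94 h for Arntl, -2.81 and -2.43 h for Nr1d1, and 7.62 and 8.43 h for Rora. The count of mesor calls rose from 1 to 2, with Arntl added, on the deposited values, with a pseudocount of 0.1, with voom weights and without NRF ZT12 replicate 1 (adjusted p for Arntl 0.0402, 0.0231, 0.0146 and 0.0491). The count of 12-h calls under NRF rose from 1 to 2 with a pseudocount of 0.1 and to 3 with voom weights, and that under DRF ran from 1 to 3 when 1 library was left out. Calls at ZT8 ran from 0 to 2, 2 without NRF ZT8 replicate 4. Npas2 minus Nr1d2 in place of Arntl minus Nr1d1 gave -1.66 at ZT4 (exact p = 0.0286), 1.47 at ZT16 (exact p = 0.0286) and -0.41 at ZT8, the opposite sign to 1.03. Without a pseudocount the ZT8 value was 1.13 (exact p = 0.0571). Leaving out 1 library moved the ratio differences between -0.34 and 0.13 at ZT4 and between 3.25 and 3.78 at ZT12, and with 3 against 4 no test could pass. The 300-base window raised the genes with a motif from 1 to 2. Median-of-ratios scaling moved the median of all genes most for DRF ZT16 minus NRF ZT4, from -0.09 to 0.01, and added calls for Clock at ZT20, at ZT24, in 2 feeding-time comparisons and in the 12-h component under DRF, the last also gained on the deposited values. Same-numbered samples of the regimens correlated in 13 of 27 pairs above 0.1 (median 0.057, range -0.446 to 0.685). Differently numbered samples were not compared, so whether the numbers pair the mice was not tested. The replicate block left out the library with no number, raised the 12-h calls under DRF from 2 to 3 by adding Clock (adjusted p = 0.0392) and changed no other count of calls. The causes of these changes were not tested. Reads limited Npas2 and Arntl at their troughs, with 10 and 22 reads in the lowest library.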
